A study of Homo sapiens with 6 samples.

Results

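Among the 19108 regions called for full-length ZNF469, 686 lay on a local background of 5 fragments or more, and these are the regions described here. They were chosen by the local background that the peak caller had estimated at each summit, so the height of that background is their definition and not a result. Joined wherever neighbours lay within 20 kb of each other, the 686 regions formed 336 domains. The regions come from LX-2, a human hepatic stellate cell line that was immortalized. Stellate cells make most of the collagen of a scarred liver. Each line held a stably integrated piggyBac transgene with an N-terminal HA tag, which encoded either full-length ZNF469 or dZF, from which most of the zinc fingers had been deleted, and both groups received 1 ug/mL doxycycline for 24 h to induce it. An antibody against ZNF469 was used in CUT&RUN, in which an antibody-tethered nuclease cuts the chromatin around its target and the released fragments are sequenced. There were 3 libraries per construct, 1 line per construct (labelled clone3.4 for full-length and clone3.1 for dZF), and an effect of the construct and any other difference between the lines cannot be told apart. Whether these names mean clones of cells or of plasmid is not given in the sources used here. The antibody was raised against ZNF469 and not against the tag, so the cells' own protein may contribute.

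The deposited processed files hold 1 peak list per group of 3 libraries, so no value has a replicate error and no comparison below was tested. How the 3 libraries were combined is not given in the sources used here. Every difference is a description of these lists. Limits printed in parentheses after a pileup are 95% limits from the exact Poisson distribution and take in counting error alone. A pileup is the number of fragments stacked at the summit of a region, and the local background is the number that the caller expected there, both recovered from the deposited fold enrichment and −log10 p-value. Whether a unit is a sequenced fragment or an extended read is not given in the sources used here, and "fragment" stands for either. All backgrounds above the lowest were whole multiples of 0.0103 fragments within a tolerance of 0.02 steps, which is 103 bp spread over 10 kb, so each could be read as a whole number of tags in the 10 kb around the summit. The threshold of 5 fragments corresponds to 486 tags.

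ZNF469 is a very large zinc finger protein of the nucleus, whose loss causes brittle cornea syndrome, a disorder of connective tissue. COL1A1 encodes the main chain of type I collagen, the chief fibrillar collagen of scar tissue, and COL3A1 encodes the chain of type III collagen, which is laid down together with it. A peak caller normally estimates the local background to guard against regions of the genome where fragments pile up over many kb, whatever their origin, and divides the pileup by it. A summit inside a broadly covered stretch therefore has a low fold even when many fragments lie on it.

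The sequences at the summits of 11 such regions are shown because they hold the regions with the highest pileups and backgrounds and the regions that the results turn on. Each is 100 bp of the plus strand of hg38, 5′ to 3′, centred on the summit. Capitals mark AP-1 motifs (TGANTCA), TEAD motifs (GGAATG) and RUNX motifs (TGTGGT), searched on both strands, except where stated. TGANTCA is the site of FOS and JUN family dimers with any base (N) allowed in the middle, which is wider than its consensus.
COL3A1, region of highest pileup (chr2:189002199-189002298): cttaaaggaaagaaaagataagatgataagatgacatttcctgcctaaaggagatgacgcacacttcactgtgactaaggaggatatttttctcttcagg
COL1A1, region of highest background (chr17:50191247-50191346): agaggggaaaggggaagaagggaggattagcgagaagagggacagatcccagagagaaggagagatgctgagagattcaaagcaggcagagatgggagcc
COL1A1, region of highest pileup (chr17:50196914-50197013): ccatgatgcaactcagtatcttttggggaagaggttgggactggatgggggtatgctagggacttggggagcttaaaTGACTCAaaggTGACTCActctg
TRIO, region of highest pileup (chr5:14190592-14190691): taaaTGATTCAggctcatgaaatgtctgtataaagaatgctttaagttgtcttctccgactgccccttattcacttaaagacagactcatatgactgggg
VMP1, region of highest pileup (chr17:59754620-59754719): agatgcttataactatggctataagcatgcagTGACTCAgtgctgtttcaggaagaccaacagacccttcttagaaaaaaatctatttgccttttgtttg
downstream of DKK1 (chr10:52319037-52319136): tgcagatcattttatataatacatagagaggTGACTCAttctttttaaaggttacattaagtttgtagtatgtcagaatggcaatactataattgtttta
LINC-PINT, upstream of the miR-29 genes (chr7:130913339-130913438): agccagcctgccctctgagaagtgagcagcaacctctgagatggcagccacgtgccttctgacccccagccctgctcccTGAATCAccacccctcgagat
OSMR intron region (chr5:38872336-38872435): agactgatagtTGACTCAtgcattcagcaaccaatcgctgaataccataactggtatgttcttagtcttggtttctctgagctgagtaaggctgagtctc
The COL1A1 region of highest pileup held 2 AP-1 motifs in these 100 bp, and TRIO, VMP1, DKK1, LINC-PINT and OSMR held 1 each. The region of highest pileup in COL3A1 and the region of highest background in COL1A1 held none of the 3 motifs in this window.
For the next sequence, at the start of GADD45A, capitals mark the octamer ATGCAAAT on either strand, the motif of POU factors, of which it held 2.
GADD45A start (chr1:67685086-67685185): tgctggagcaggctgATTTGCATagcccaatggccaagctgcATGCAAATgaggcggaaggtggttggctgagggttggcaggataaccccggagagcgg
For the last pair, the only regions that were also called with dZF, capitals mark GGAAT on either strand, the unit of human satellite repeats.
chromosome 16, upstream region of the pair (chr16:46387885-46387984): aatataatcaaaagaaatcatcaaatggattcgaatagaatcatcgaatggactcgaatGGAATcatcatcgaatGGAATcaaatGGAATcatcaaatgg
chromosome 16, downstream region of the pair (chr16:46389653-46389752): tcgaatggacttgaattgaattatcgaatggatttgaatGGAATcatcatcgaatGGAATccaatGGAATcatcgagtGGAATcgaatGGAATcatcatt
They held 3 and 5 copies of GGAAT.

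Most high-background regions had neighbours of the same kind. Of the 336 domains, 139 held 1 region and 197 held 2 or more, so that 547 of the 686 regions (79.7%) lay in a domain with at least 1 other. There were 114 domains with 2 regions, 53 with 3, 16 with 4 and 14 with 5 or more. The grouping and the background both draw on the density of fragments in a neighbourhood. Each background covers 10 kb, so close neighbours share much of the same window and tend to pass the threshold together. Clustering therefore follows largely from the rule itself. The share of the other full-length regions with such a neighbour is not given here. The median span of the domains with 2 or more regions was 3.91 kb, and the longest, in TRIO, spanned 65.8 kb. By name, 204 domains had a region in the body of a protein-coding gene, 51 only in the body of a noncoding gene, and 81 in neither, and these last are named by the nearest protein-coding start. Inside the spans of all domains lay 6 full-length regions of lower background.

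Most of the regions stood only a little above the threshold. The local background of the 686 regions ran from 5.01 to 44.04 fragments with a median of 6.09, and 488 regions (71.1%) had a background under 7. A background of 10 or more was found at 63 regions in 22 domains, and one of 20 or more at 12 regions in 3 domains. Those 3 domains were COL1A1 with 8 such regions and COL3A1 and a stretch of chromosome 16 with 2 each, and their highest values were 44.04, 31.9 and 29.0 fragments. Just inside the threshold lay a region 105 kb upstream of F3 (5.01 fragments, 486 tags), 1 in ANO6 and 1 in ACTN1. Just outside it lay regions near AP5S1 and WDR75 (4.996 fragments, 485 tags) and TEX35 (4.99 fragments, 484 tags).

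**Figure D1:**
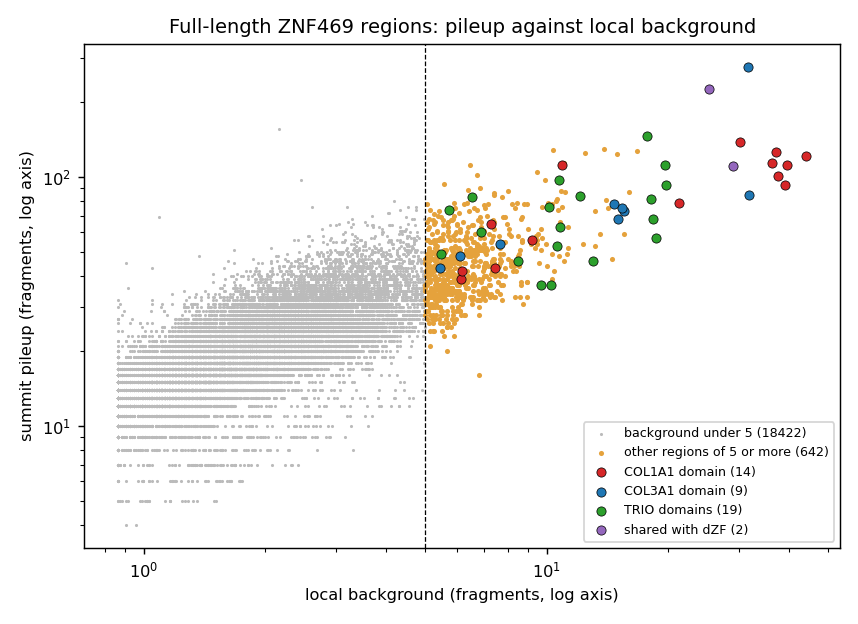
Summit pileup against local background, both in fragments on log axes, for all 19108 full-length regions, with the dashed line at the threshold of 5. Regions inside COL1A1, the pair of highest background inside COL3A1 and the pair shared with dZF occupy the far right, while the flanking regions of both collagen genes lie nearer the line. Pileups run from 79 to 138 inside COL1A1 and from 43 to 277 in the COL3A1 domain.

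The median pileup of the 686 regions was 45 fragments, with quartiles of 36 and 56, against 20 for the other 18422 full-length regions, with quartiles of 16 and 26. The median fold went the other way, 5.93 against 7.41. Both follow in part from the rule, since a region's own fragments count toward its background and the background divides the fold. How much of the background the called regions could hold was bounded by laying each region's summit pileup over its whole width within the 10 kb window. This gives an upper bound where pileup and background count the same fragments, and it can exceed 100%. Its median was 79.8% of the background for the 686 regions and 58.2% for the others. For 145 of the 686 (21.1%) the called regions alone could have supplied the whole background, and for 105 (15.3%) they could have supplied under 50% of it. Among the other full-length regions these shares were 8.403% and 37.7%.

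COL1A1 had the highest backgrounds and the most regions of any domain. The COL1A1 domain (chromosome 17, 50173540 to 50220222, 46.7 kb) held 14 regions, all of the full-length regions in its span, with 8 inside the gene, 4 upstream of its start and 2 beyond its end. COL1A1 lies on the minus strand, and the 8 regions inside it are given here from the start of the gene toward its end. At 1.26 kb from the start the pileup was 79 (62.5 to 98.5) over a background of 21.3. At 4.67 kb, over exons 10 and 11, it was 138 (116 to 163) over 30.2. At 6.23 kb, over exons 18 and 19, it was 126 (105 to 150) over 37.2. The background was thus higher at each of these steps into the gene, while the pileup was not. Each background covers the 10 kb around its summit and the gene is 17.5 kb long. Windows near its ends therefore also count fragments outside it, and how far this shaped the rise was not tested.

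At 10.3 kb, over exons 32 and 33, the background reached 44.04 fragments, the highest of the whole list and equal to 4276 tags in 10 kb, under a pileup of 121 (100 to 145). At 12.6 kb, over exons 40 and 41, the pileup was 112 (92.2 to 135) over a background of 39.5. At 13.2 kb it was 93 (75.1 to 114) over 39.1. Toward the end of the gene the background declined slightly while the pileup stayed near these levels.

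At 14.0 kb, over exon 46, the pileup was 101 (82.3 to 123) over a background of 37.4. At 14.4 kb it was 114 (94.0 to 137) over 36.3. Across the 8 regions the pileups varied from 79 to 138, and the limits of the first region and of the region of highest pileup did not overlap. The upper bound of the background held by called regions ran from 48.1% to 64.4% inside the gene. If pileup and background count the same fragments, at least 35.6% of those around each of these summits lay outside any called region.

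The flanks of COL1A1 differed from its body. Upstream, the regions at 8.17 and 8.87 kb from the start had pileups of 39 and 42 over backgrounds of 6.12 and 6.16, and those at 17.2 and 18.1 kb had pileups of 43 and 65 over 7.44 and 7.29. Downstream of the gene end, 1 region had a pileup of 112 (92.2 to 135) over 10.9, with a fold of 9.50, and the other, in SGCA, had 56 (42.3 to 72.7) over 9.21. The downstream region with 112 fragments thus had a pileup like those inside the gene on a much lower background. The upper bound ran from 76.0% to 124% over the 6 flanking regions, above all 8 values inside the gene.

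COL3A1 ranked second among the domains by background, with a different layout. Its domain (chromosome 2, 188969226 to 189022377, 53.2 kb) held 9 regions, 6 in the gene, 1 upstream and 2 downstream. Read in the direction of the gene, on the plus strand, the first 4 regions inside it lay at 1.499, 4.51, 12.7 and 19.2 kb from the start. Their backgrounds were 14.7, 15.5, 15.3 and 15.04 and their pileups 78, 73, 75 and 68, and the limits of the 4 pileups all overlapped. The upper bound held by called regions was only 17.4% to 35.8% here. Under the same condition, at least 64.2% of the local fragments lay outside called regions.

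Farther into COL3A1 a pair of regions stood on a higher background. The region at 25.7 kb had a pileup of 85 (67.9 to 105) over 31.9. The region at 27.9 kb, from 189001536 to 189002815 over exons 34 and 35, had a pileup of 277 (245 to 312) over 31.6, and no full-length region had a higher pileup. The upper bound was 122% and 123% for this pair, so the high background around them could come entirely from the called regions themselves. The flanking regions had lower backgrounds than those in the gene, with a pileup of 54 over a background of 7.66 at 4.94 kb upstream and pileups of 48 and 43 over 6.11 and 5.44 downstream.

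**Figure D2:**
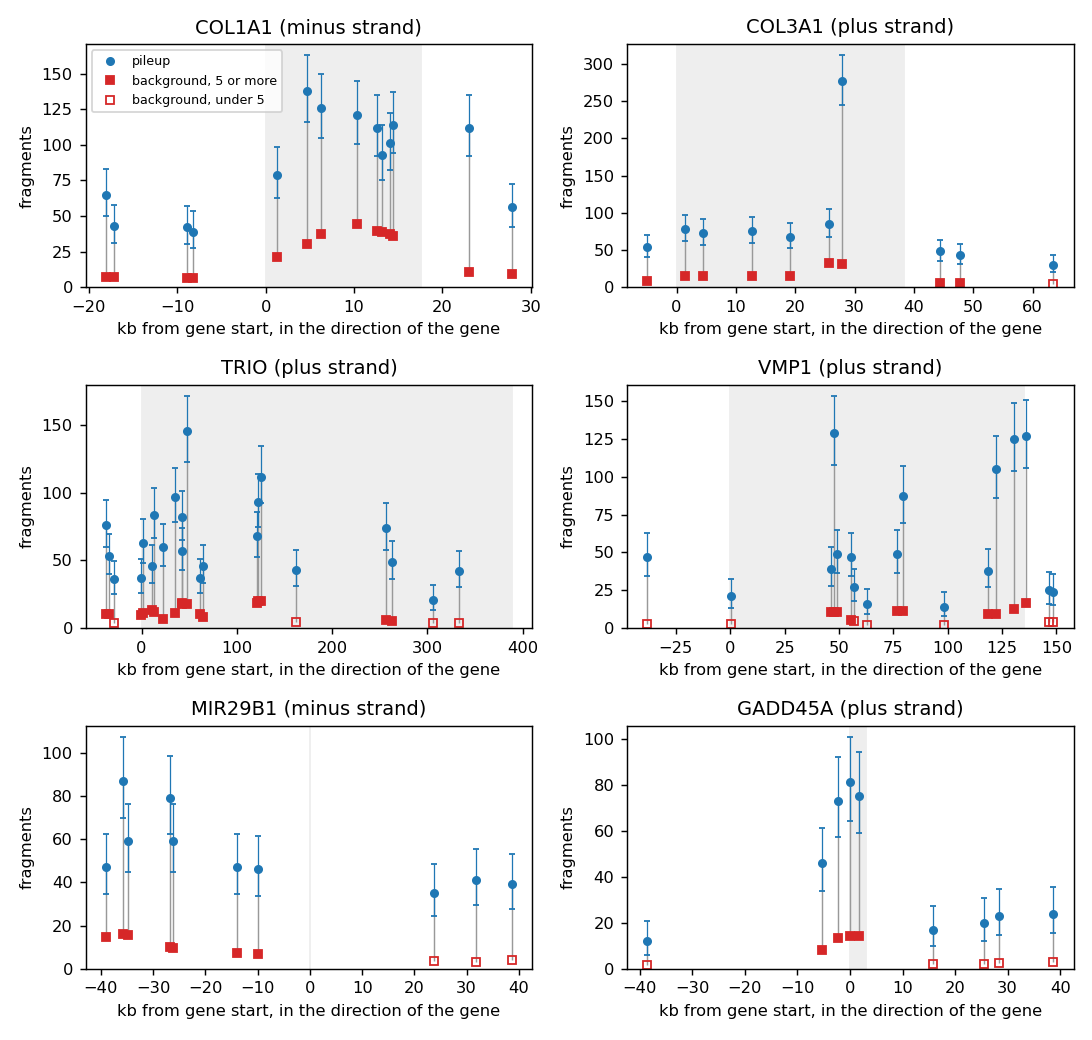
Pileup (blue, with 95% Poisson limits) and local background (red, filled from 5 fragments upward and open below) of every full-length region at and around 6 genes, against the distance in kb from the gene start in the direction of the gene, with the gene shaded. In COL1A1 the background rises to 44.04 in mid-gene and stays above 36 to the last region inside the gene, in COL3A1 it stays near 15 before reaching 31.9, and in TRIO and VMP1 it falls below 5 between groups of regions. Each background covers 10 kb, so values near the ends of a gene also count fragments outside it.

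Together the COL1A1 and COL3A1 domains held 23 of the 686 regions (3.35%), and 15 of the 63 with a background of 10 or more. COL1A2, which encodes the partner chain of type I collagen, had no high-background region. Its gene body held 1 full-length region, with a pileup of 41 (29.4 to 55.6) over a background of 3.99, and 2 others within 20 kb upstream had pileups of 31 and 19 over 2.72 and 2.00. The limits of the COL1A2 region lay below those of all 8 regions inside COL1A1.

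Beyond these genes, the collagen chains with high-background regions were COL5A2 and COL12A1. COL5A2, a chain of the type V collagen that nucleates fibrils, lies next to COL3A1 and runs toward it, and 10 of its 16 regions were high-background, in several domains. Its highest backgrounds were at a pair of regions 128 kb from the start, with 11.0 fragments under pileups of 46 (33.7 to 61.4) and 114 (94.0 to 137), and a region at 138 kb had 78 (61.7 to 97.3) over 10.3. COL12A1, a fibril-associated collagen, had 4 of 6 regions above the threshold, with backgrounds of 6.03 to 7.004 and pileups of 37 to 77. Of the 44 collagen chain genes, 4 had a high-background region in the body and 27 had any full-length region in the body or within 20 kb upstream. In all, 28 of the 100 regions in collagen gene bodies were high-background (28.0%), or 14 of 86 (16.3%) without COL1A1 and COL3A1. Those 14 were the 10 in COL5A2 and the 4 in COL12A1, and no other collagen chain had one, so the share is not a trait of collagen genes at large. Over all protein-coding gene bodies it was 409 of 11318 (3.61%). The lists of genes were drawn up with earlier results of these data known, so these shares are descriptions.

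Matrix and matricellular genes other than collagens contributed 6 of 31 genes, with 12 of the 70 regions in their bodies (17.1%), 5 of them in LOXL2. Over all protein-coding genes it was 189 of 20007 genes (0.945%) and 409 of 11318 regions (3.61%). CCN1, a secreted matricellular protein and YAP target, had the highest backgrounds of the list, with 76 fragments over 10.9 at the end of the gene and 80 over 10.5 upstream, at the start of the neighbouring gene DDAH1. A further 3 regions from 26.8 to 32.2 kb past its start formed a domain of their own, with pileups of 40 to 65 over 6.38 to 9.45. LOXL2, a lysyl oxidase that crosslinks collagen, held a compact domain of 5 regions in 7.06 kb, 69.0 to 75.7 kb from the start of the gene, with pileups of 30 to 45 over backgrounds of 5.84 to 6.79. SPARC, a collagen-binding matricellular protein, had 2 in the body (36 and 49, over 5.35 to 5.75) and a domain of 3 just past its end, with pileups of 54, 97 and 82 over 9.93 to 10.6. TNC and PLOD2 had 1 in the body each, over backgrounds of at most 6.55.

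Of the actin cytoskeleton and contraction list, which also held LMNA, 5 of 22 genes had a high-background region, all with backgrounds under 8. Of all protein-coding genes, 0.945% had one in the body. MYH9, the nonmuscle myosin heavy chain, had 4 of its 5 regions among them (pileups 32 to 60 over 5.01 to 6.55). TPM1 had 1 region (46 over 7.31). ACTN1 and LMNA had 2 each, over backgrounds of 5.01 to 5.20. The share of high-background regions in the bodies of this list was 11 of 46 (23.9%), beside 3.61% over all protein-coding gene bodies, and 4 of the 11 were in MYH9. MYL12A, a myosin light chain gene that is not on the list, shared a domain with its neighbour MYL12B, with a pileup of 88 over 10.9 in the gene and 42 over 10.4 at its start.

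TRIO was the gene with the most high-background regions. TRIO encodes a guanine nucleotide exchange factor that acts on the actin cytoskeleton, and 15 of the 18 full-length regions in its body were high-background. The domains named for TRIO held 19 regions, in groups of 11, 3 and 2 along the gene, 1 of the 11 just before its start, and a group of 3 upstream. In the domain at the start of the gene, which spanned 65.8 kb, the backgrounds ran from 6.89 to 18.7 and the pileups from 37 to 146. The region at 47.3 kb had 146 fragments (123 to 172) over 17.7, the third highest pileup of the 686.

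The second TRIO domain held 3 regions within 4.21 kb, 121 to 125 kb from the start, with pileups of 68, 93 and 112 over backgrounds of 18.4 to 19.8. At 257 and 263 kb the pileups were 74 and 49 over only 5.73 and 5.47, and regions between and beyond these domains had backgrounds of 3.45 to 4.31. The high-background regions thus lay in separate stretches of the gene. The background is known only at called summits, so coverage elsewhere along the gene cannot be read from this list. The upper bound held by called regions ran from 31.4% to 86.9% in the 2 domains of highest background, lowest near the gene start.

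VMP1, which encodes a membrane protein of autophagy, held 9 high-background regions of 13, in 3 domains, the last of which extends past its end over MIR21. At 46.4 to 49.2 kb from the start, pileups of 39, 129 and 49 lay over 10.3 to 10.4, and at 76.5 to 79.6 kb pileups of 49 and 87 lay over 11.1 to 11.3. At the end of the gene the pileups were 38, 105, 125 and 127, over backgrounds that rose from 8.92 to 16.8. The last of these lay 1.56 kb past MIR21. Between the domains the background was as low as 1.88, under a pileup of 14. The bound reached 142% at 49.2 kb and 70.7% beside MIR21.

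**Figure D3:**
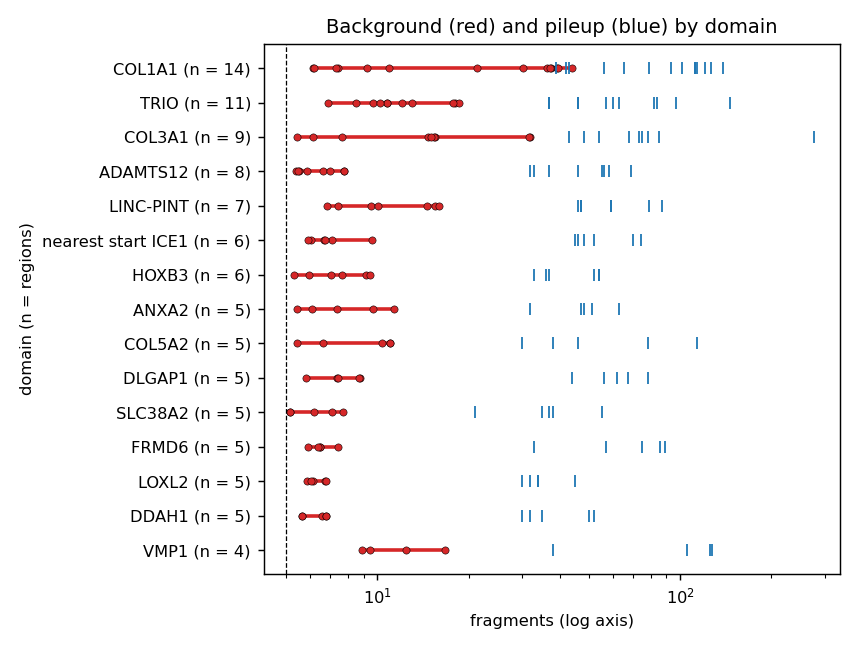
Local background (red points, joined by a line over their range) and pileup (blue ticks), in fragments on a log axis, of each region in the 15 domains with most regions, with n the number of regions in the domain and the dashed line at 5. COL1A1, COL3A1, TRIO, LINC-PINT and VMP1 reach backgrounds above 15, whereas the backgrounds of the other 10 domains stay under 12.

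The remaining domains with 5 or more regions had lower backgrounds. ADAMTS12, a secreted metalloprotease gene, held 8 regions over 48.4 kb, with pileups of 32 to 69 over 5.40 to 7.77. ANXA2, a phospholipid-binding protein of the membrane skeleton, held 5 within its body, with pileups of 32 to 63 over 5.41 to 11.3, and all but the 1 at 2.79 kb from the start had an AP-1 motif. DLGAP1 held 5 regions at 44 to 78 fragments over 5.81 to 8.79, and all 5 had an AP-1 motif. Such counts varied between domains, with 1 of 8 in ADAMTS12 and 3 of 14 in COL1A1. Over all regions in domains of 5 or more the share was 41.7%, against 41.9% of the regions under the threshold.

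FRMD6, a FERM domain protein of the Hippo pathway, held 5 regions with pileups of 75, 57, 33, 86 and 89 over 5.92 to 7.41. DDAH1, which degrades methylated arginines, held a domain of 5 at 30 to 52 over 5.62 to 6.78, and a sixth region of its body is the 1 with 80 over 10.5 given above with CCN1. In the SLC38A2 domain 1 region overlapped exon 1 of this amino acid transporter (55 over 5.16) and 4 lay upstream, over backgrounds of 5.14 to 7.71. A domain of 6 regions lay in no gene, 69.2 to 84.7 kb upstream of ICE1, the nearest start, with pileups of 45 to 74 over 5.89 to 9.59.

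The HOXB cluster differed from these in its low upper bound on the background held by called regions. HOXB genes encode homeodomain factors that set position along the body axis. The domain named for HOXB3 held 6 regions over 41.8 kb, with pileups of 33 to 54 over backgrounds of 5.29 to 9.48, and the highest background was at the start of HOXB4, 1.15 kb from MIR10A. The upper bound was 12.8% to 56.0%, with a median of 24.1%. Other named regions were at the opposite end. A region 4.81 kb past the start of DKK1, a secreted Wnt inhibitor, had 130 fragments (109 to 154) over 13.9 with a bound of 129%, and a region 24.4 kb upstream of DNAH5 had 124 (103 to 148) over 14.98 with a bound of 107%.

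The short stress-response gene GADD45A had 4 regions in and before it. A region at its first exon had 81 fragments (64.3 to 101) over 14.1, and 1 at 1.64 kb had 75 over 14.2. Upstream, 73 fragments lay over 13.2 at 2.28 kb and 46 over 8.17 at 5.29 kb, and the next called regions, 15.9 kb past and 38.6 kb before the start, had backgrounds of 2.21 and 1.51. The octamer ATGCAAAT, printed above for this region, was present within 200 bp windows of 11 of the 686 regions (1.60%) and 285 of the others (1.55%), and this motif was searched after the sequence had been seen.

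Several high-background domains lay near genes for microRNAs, short RNAs that repress messenger RNAs through a seed at bases 2 to 8. The share of microRNA genes near any full-length region is not given here, so no preference for them can be read from this. The mature sequences, from RefSeq on GRCh38.p14 (5′ to 3′), are shown for 5 microRNAs of 3 such domains (VMP1, LINC-PINT and MIR222HG), with the seed in capitals.
hsa-miR-21-5p: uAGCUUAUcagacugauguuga
hsa-miR-29a-3p: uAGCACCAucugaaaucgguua
hsa-miR-29b-3p: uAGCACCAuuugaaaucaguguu
hsa-miR-221-3p: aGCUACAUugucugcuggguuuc
hsa-miR-222-3p: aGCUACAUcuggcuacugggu
The miR-29 pair shares 1 seed and the miR-221 and miR-222 pair another. MiR-29 is known as a repressor of collagen messenger RNAs, and miR-21 as an RNA that rises in fibrosis.

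MIR29B1 and MIR29A, on the minus strand of chromosome 7, had 7 high-background regions 9.89 to 39.1 kb upstream, in LINC-PINT. Their pileups ran from 46 to 87 and their backgrounds from 6.82 to 15.98. An AP-1 motif was present in 5 of the 7, beside 41.7% of all regions in domains of 5 or more. Within this domain the backgrounds were highest at the 3 regions 34.7 to 39.1 kb away (14.6 to 15.98) and lowest at the nearest. A second LINC-PINT domain, farther upstream (chromosome 7, 130939598 to 130961641), held 4 regions with pileups of 33 to 59 over 6.11 to 8.60. The 3 full-length regions 23.7 to 38.7 kb downstream had pileups of 35 to 41 over 3.34 to 3.99. MIR221 and MIR222, on chromosome X, had 4 regions from 11.05 kb upstream of MIR222 outward, at 37 to 66 fragments over 7.18 to 11.3. Single regions lay 0.663 kb upstream of MIR22 (33 over 5.0985) and 0.646 kb upstream of MIR30A (59 over 5.52). Inside the COL3A1 domain, MIR1245A and MIR1245B lay 0.526 kb from a region with 73 fragments over 15.5, and MIR3606 lay 1.58 kb from 1 with 68 over 15.04. MIR7845 was the microRNA gene that a region overlapped, in KLF7 (83 over 7.75).

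JUN, the AP-1 subunit, had 1 region at its start with 74 fragments (58.1 to 92.9) over 5.14 and a fold of 12.2, and FOSL1 and IER3 had regions upstream, out of 15 immediate early and AP-1 genes. The list of long noncoding RNAs, which also held MIR21, gave MALAT1 with 1 region in the body (62 over 8.97) and 2 upstream, and NEAT1 with 2 upstream (57 and 53 over 9.73 and 13.2), out of 9. None of the 74 canonical histone genes had a high-background region in the body or within 20 kb upstream, and 46 of them had a full-length region. Of 3298 annotated small nuclear, 7SK, 7SL and ribosomal RNA entries, taken by symbol and including pseudogenes, 0 had one in the body and 5 had one upstream. All 5 carry pseudogene symbols. Of all 20007 protein-coding genes, 189 (0.945%) had one in the body and a further 56 only upstream.

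In ZNF469 itself there was 1 region (chromosome 16, 88427703 to 88429081), in coding sequence of exon 3, with 52 fragments (38.8 to 68.2) over a background of 9.35. Since the transgene carries this coding sequence, fragments of the transgene and of the endogenous gene cannot be told apart here.

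Of the 686 regions, 2 were shared with the dZF list (0.292%), against 20 of the other 18422 full-length regions (0.109%) and 0.115% of the list as a whole. Both lay on chromosome 16 in no gene, at 46387839 to 46388026 and 46389631 to 46389786, 232 kb or more from the nearest protein-coding start. With full-length ZNF469 the first had 225 fragments (197 to 256) over 25.3 and the second 111 (91.3 to 134) over 29.0. With dZF the pileups were 217 (189 to 248) over 25.8 and 124 (103 to 148) over 29.0. The limits overlapped for each region, and the totals behind the lists were not compared. These were the only dZF regions with a background of 5 or more. The upper bound held by called regions was 23.6% and 20.6%, and 4 or more copies of GGAAT in 100 bp were found at 12 of the 19108 full-length regions, 3 of them among the 686. No region of the COL1A1, COL3A1, TRIO or VMP1 domains was in the dZF list.

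The 686 regions were spread unevenly over the chromosomes. On chromosome 5 before position 48 Mb, which is close to the whole short arm, 108 of 454 full-length regions (23.8%) were high-background, and these made up 15.7% of the 686 against 2.38% of the full-length list. The next highest shares were 6.83% on chromosome 14 and 5.75% on chromosome 17. The median background of all full-length regions on this part of chromosome 5 was 3.57 fragments, 1.96 times that of the list, and that of the regions under the threshold was 3.17. The part of chromosome 5 after 48 Mb had a median of 2.12. TRIO, ADAMTS12, BASP1, OSMR, DNAH5 and ICE1 lie on the raised part. BASP1 had the highest fold of the 686, 15.2, with 112 fragments (92.2 to 135) over 6.45, and OSMR, the oncostatin M receptor gene, had 102 (83.2 to 124) over 6.72.

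When each background was divided by the median of its chromosome or chromosome 5 part and multiplied by the median of the list, 600 regions in 293 domains were at 5 or more. Of these 525 were among the 686, and 16 lay on chromosome 5 before 48 Mb. Of the 161 regions that dropped out, 92 lay there. All 14 COL1A1 and all 9 COL3A1 regions stayed at or above 5 on the scaled background, as did 9 of 10 VMP1 and 13 of 19 TRIO regions. What raised the background on this part of chromosome 5 was not tested.

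**Figure D4:**
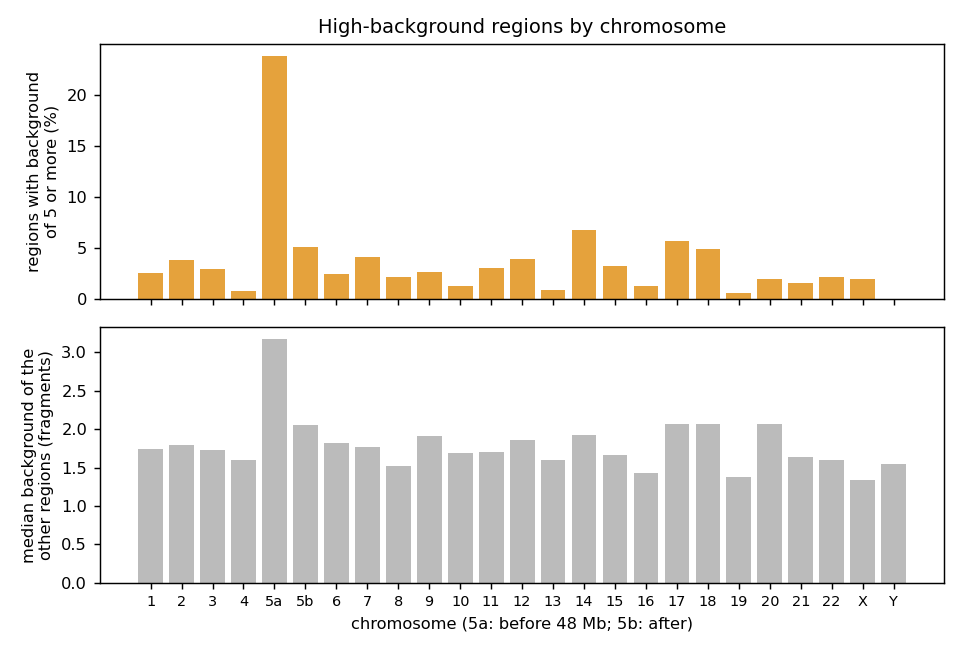
Upper bars, percent of full-length regions with a local background of 5 or more, by chromosome, with chromosome 5 divided at 48 Mb (5a before, 5b after). Lower bars, median background in fragments of the regions under 5. The part 5a stands out in both, at 23.8% and 3.17 fragments, whereas the other chromosomes stay at or under 6.83% and 2.07.

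By annotation, the high-background regions resembled the others. A protein-coding gene body held 409 of the 686 (59.6%) and 59.2% of the others. In gene bodies the median distance of the summit from the gene start was 38.7 kb against 34.6 kb. A promoter, within 3 kb of a protein-coding transcript start, was overlapped by 32.5% and 30.2%, but within 1 kb by 21.1% and 23.8%, so the order depends on the width chosen. An exon was overlapped by 18.5% and 21.2%, although the regions under study were wider, with a median of 525 bp against 438 bp. A further 9.18% and 9.85% lay in no protein-coding gene but within 20 kb upstream of one. With a minimum background of 10, an exon was overlapped by 31.7% and 21.1%, so the exon order depends on the threshold. Gene bodies then held 66.7% and 59.2%, and promoters 38.1% and 30.3%.

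Motifs were counted in 200 bp centred on the summit, on both strands. An AP-1 motif was present in 40.2% of the 686 regions and 41.9% of the others. Inside promoters the shares were 31.4% and 23.1%, and outside promoters 44.5% and 50.1%. A TEAD motif was present in 25.4% and 20.9%, and a RUNX motif in 21.1% and 17.3%. The shorter GGAAT, which every TEAD match contains, was present in 51.5% and 43.8%. The SP/KLF motif GGGCGG was less frequent in the 686 regions, 9.18% against 14.8%, and the E-box CACGTG was present in 2.92% and 2.90%. The median GC content was 43.5% against 45.5%. With a minimum background of 7, the TEAD shares were 21.2% and 21.0%, whereas the SP/KLF shares were 9.09% and 14.6%, so the first difference depended on the regions nearest the threshold.

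**Figure D5:**
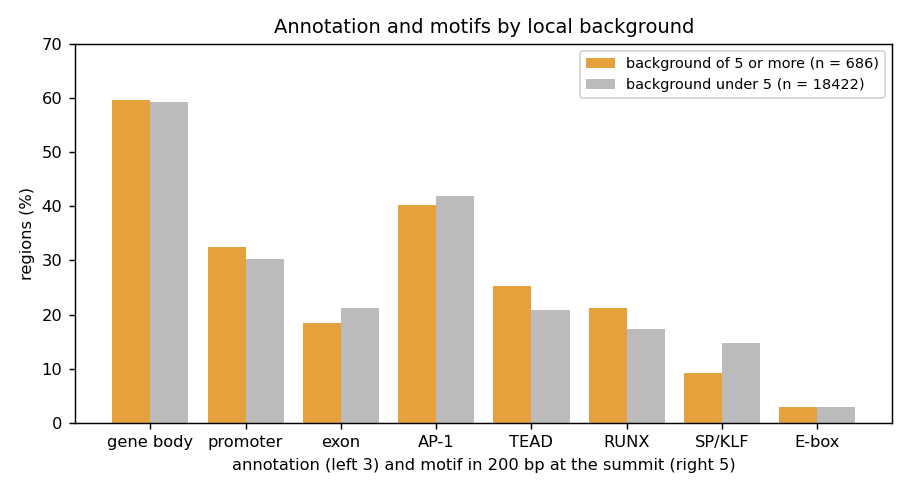
Percent of regions that overlap an annotated feature (left) or hold a motif in the 200 bp at the summit (right), for the 686 regions with a background of 5 or more and the 18422 others. Gene bodies, AP-1 and E-box differ by under 2 percentage points, and SP/KLF differs most in proportion, at 9.18% and 14.8%.

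The few regions of highest background departed from this picture. Of the 12 regions with a background of 20 or more, 1 had an AP-1 motif in 200 bp (8.33%), against 51.0% of the 51 regions with 10 to under 20, 38.5% of the 135 with 7 to under 10 and 40.4% of the 488 below. The 12 regions come from 3 domains and share their neighbourhoods. Their median pileup was 113 and their median fold 3.20, against 75 and 5.18, 47 and 5.44, and 41 and 6.32 in the lower classes. The order of pileup and fold follows in part from how the classes were cut. The background divides the fold and counts a region's own fragments.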

How the data were processed

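CUT&RUN with an antibody against ZNF469 was analysed from the 2 peak lists that the authors made from 6 libraries, 3 per construct. Per the submitters' processing notes, the tools were bcl2fastq, Bowtie2 2.3.4.3, MACS2 2.2.5, R 4.2.1 and deepTools 3.5.1, on hg38. The notes give these tools no role. The deposited columns used were the fold enrichment (a ratio), the −log10 p-value, the score of an irreproducible discovery rate filter and the summit position. The local background is the caller's own estimate, and no control library is named in the sources used here. Library totals were not used, and no column of another series was used.

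Pileup and background were recovered by solving fold = (pileup + 1)/(background + 1) together with the Poisson tail for a whole pileup (the largest miss in −log10 p was 6.94e-05). The step was tested on simulated records. Regions with a background of 5 or more were joined at gaps of up to 20 kb. Genes followed GENCODE 44, and coordinates count from 1. A domain was named by the protein-coding gene with most of its regions, then by a noncoding gene, then by the nearest start. Python 3.11.15, numpy 2.4.6, pandas 2.3.3, scipy 1.17.1 and pysam 0.24.0 were used. Genes and regions named were the 15 domains with most regions, the 10 regions of highest background and of highest pileup, all regions shared with dZF, COL1A1, COL3A1, ZNF469 and listed genes with a region. GADD45A, DKK1, DNAH5, OSMR, BASP1, MYL12A, COL1A2 and the microRNA genes are named beyond this rule or after their values were seen. Some listed genes are counted but not reported here by name. The members and the lists were chosen with earlier results of these data known. The alternatives moved the threshold, the gap, the score, the annotation and the windows.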

Additional observations from a re-analysis of the deposited data

How the results depend on the processing

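Of 74 alternative values for 10 results, 49 stayed within the limits set for them (1.5 times for a count, the 95% Wilson interval for a share, the quartiles for GC content), all 20 of the values from the alternatives chosen after seeing the data among them. Those alternatives scaled the background by chromosome or left out chromosome 5 before 48 Mb. The number of regions shared with dZF stayed at 2 and the median GC content stayed at 43.2% to 44.5% throughout. The 2 shared regions had backgrounds of 25.3 and 29.0, above every minimum used, so no change of the minimum could drop them. With a minimum background of 4, 7 and 10 there were 1387, 198 and 63 regions, 706, 89 and 23 domains, and 394, 59 and 18 domains with 2 or more regions, and the COL1A1 and COL3A1 domains held 1.73%, 9.60% and 23.8% of the regions. At a minimum of 10, 66.7% of the regions lay in gene bodies and 38.1% in promoters, and at 7 and 10 an exon was overlapped by 24.2% and 31.7%. The shares for bodies and exons take in 8 regions inside COL1A1 and 6 inside COL3A1. For the regions below those minimums the shares were 59.2% for bodies and 30.3% for promoters, and 21.1% for exons at 7 and at 10. Regions in the upper 50% of the list by fold numbered 165. By summit position alone, gene bodies held 55.8% and exons 6.997%, and with all annotated genes the shares were 74.9% for bodies, 43.4% for promoters and 24.5% for exons. Promoters within 1 kb held 21.1%. An AP-1 motif was present in 25.4% of windows of 100 bp and 54.2% of windows of 400 bp. No paired analysis was possible because each group has 1 list without values per replicate, and for the same reason no library could be left out. Depth limits the ranking of single regions, since the median pileup of 45 has Poisson limits of 32.8 to 60.2.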
